A study of Mus musculus with 18 samples.

Results

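Ribosome biogenesis genes were described here across 7 groups of mouse embryonic stem cell cultures on their way to cardiomyocytes. The set holds 50 genes of the 23337 in the count table, named by symbol as nucleolar assembly and ribosomal RNA processing factors, with ribosomal proteins left out. All 50 were found and all 50 passed the filter on low counts, which left 14892 genes tested. For the description they were sorted by textbook role. There were 8 genes of RNA polymerase I and nucleolar organisers, 3 of the box C/D and 4 of the box H/ACA small nucleolar ribonucleoprotein (snoRNP), 17 of the small subunit processome, 6 of late 40S maturation and 12 of 60S assembly.

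All cultures came from 1 line named GLI1-FTA, of A2Lox.cre background, in which doxycycline (dox) turns on GLI1, a zinc finger transcription factor at the end of the Hedgehog pathway. Controls, labelled untreated, comprise 4 libraries of D5, 3 of D6 and 2 each of D8 and D12. Cells with GLI1 overexpression (OE) had 500 ng/ml dox for 24 hours between D5 and D6 and were then washed, and they comprise 3 libraries of D6 and 2 each of D8 and D12. D5 and D6 cells are labelled cardiac progenitor cells, and D8 and D12 cells immature cardiomyocytes. Every group is the same single line, and no group had dox without the induced gene, so dox and GLI1 cannot be told apart. Libraries are named by day, condition and the library number of the table, and nothing in the labels says that they came from separate cultures, so a p-value here covers no more than the spread among libraries, which may be technical.

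A ribosome is built in the nucleolus. RNA polymerase I transcribes the long precursor RNA, snoRNPs modify it at sites chosen by their guide RNAs, and the small subunit processome folds and cuts the part that becomes the 40S subunit. Other factors release and finish the 40S subunit, and a separate chain of assembly factors makes the 60S subunit. The genes of these factors are known as a group that is highly expressed in growing and dividing cells, and many are described as targets of MYC.

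Total counts ran from 18470785 to 26184339 per library. Gli1 stood at 6.84 to 21.4 CPM (counts scaled to the size of the library) in D6 controls and at 785 to 1051 CPM in D6 GLI1 OE, and at 0.752 to 1.45 CPM in every D8 and D12 library. None of 10 cardiomyocyte markers was at 0 in a whole group, but their summed level differed widely inside groups, as in D8 GLI1 OE with 14336 CPM in library 14 and 1424 CPM in library 18. The 4 D5 libraries carry another kind of name in the table than libraries 3 to 20 of the later days. They gave 3.97 to 4.68% of their counts to cytosolic ribosomal protein genes, against 0.888 to 1.61% in the later libraries. These are the 77 genes tested and Rpl26, which did not pass the filter. Day D5 and that difference between sets of libraries cannot be told apart, so the steps from D6 on are given first.

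The 50 genes took 0.782 to 0.834% of all counts in the 3 D6 controls and 0.372 and 0.401% in the 2 D8 controls. GLI1 OE libraries took 0.786 to 0.839% at D6, and 0.338% (library 14) and 0.448% (library 18) at D8. At D12 the share was 0.313 and 0.317% in controls and 0.325 and 0.326% in GLI1 OE. No library of D8 or D12 reached the lowest D5 or D6 library, which was D5 control library 4 at 0.762%. In bulk libraries fewer cells of a type and less RNA per cell cannot be told apart.

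**Figure D1:**
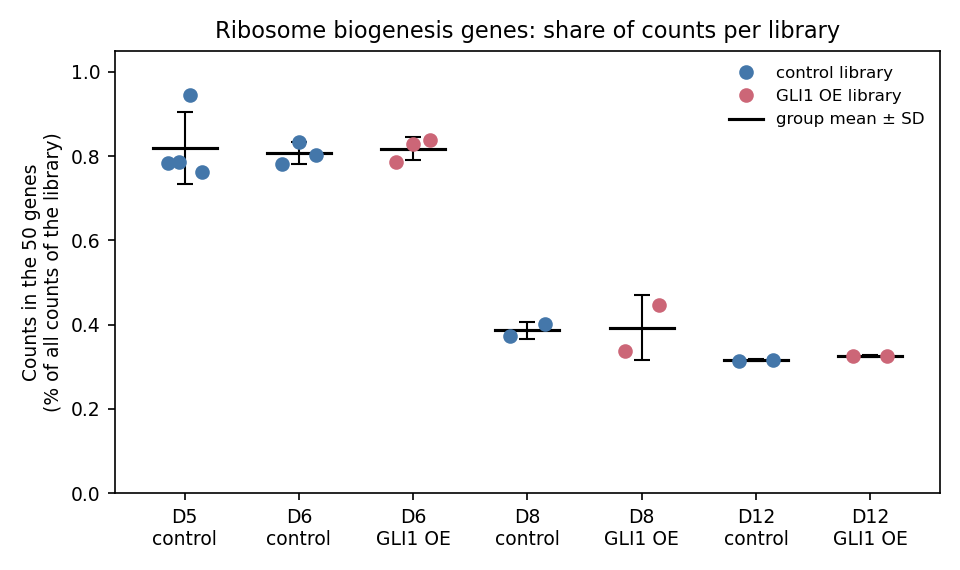
Share of all counts of a library (percent, vertical axis) that fell in the 50 ribosome biogenesis genes, by group. Points are libraries, and the line with its bar is the group mean ± SD. The D5 and D6 libraries sit between 0.762 and 0.945%, and all D8 and D12 libraries between 0.313 and 0.448%.

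From D6 to D8 in controls, 48 of the 50 genes fell and none rose, where 17.5% of all genes tested fell and 17.3% rose. The median of the 50 log2 fold changes was -1.09, with estimates from -2.11 to 0.13, against a median of 0.00 over all genes tested. For 29 genes the estimate was below -1, a fall of more than 2-fold. In 49 of 50 genes both D8 controls were below all 3 D6 controls, which held for 32.1% of all genes tested. All members fell in the box C/D, box H/ACA, late 40S and 60S groups, and 7 of 8 and 16 of 17 in the RNA polymerase I and processome groups.

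The largest fall was that of Ddx21, an RNA helicase of the nucleolus. It stood at 341, 446 and 379 CPM in D6 control libraries 3, 11 and 15, and at 88.2 and 92.1 CPM in D8 control libraries 13 and 17. The groups did not overlap, and the level was 4.31-fold lower (log2 fold change -2.11 ± 0.20 SE, edgeR adjusted p = 1.82e-05). Polr1b, the second largest subunit of RNA polymerase I, had 82.2, 92.7 and 82.6 CPM at D6 and 32.8 and 34.8 CPM at D8 (-1.35 ± 0.17, edgeR adjusted p = 8.37e-05). Polr1a, the largest subunit of the same enzyme, moved less, from 157, 174 and 162 CPM to 108 and 112 CPM (-0.58 ± 0.12, edgeR adjusted p = 0.00184). Ncl, which encodes nucleolin, a major protein of the nucleolus, was the most abundant of the 50 by CPM, with 1613, 1808 and 1807 CPM at D6 and 821 and 965 CPM at D8 (-0.97 ± 0.16, edgeR adjusted p = 0.000486). Nolc1, Tcof1 and Mybbp1a, nucleolar proteins tied to RNA polymerase I transcription, fell by 1.55, 1.08 and 0.95 log2 units.

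Polr1c, a subunit that RNA polymerases I and III share, was the exception of this group. It had 66.4, 68.2 and 70.9 CPM in the D6 controls and 75.8 and 74.6 CPM in the D8 controls. Both D8 values lie above all D6 values, but the difference did not pass the test (0.13 ± 0.10, edgeR adjusted p = 0.294).

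The snoRNP proteins fell together. Box C/D snoRNPs place methyl groups on ribosomal RNA. Of their core proteins, Nop58 stood at 248, 318 and 284 CPM at D6 and at 98.4 and 107 CPM at D8 (-1.47 ± 0.16, edgeR adjusted p = 3.97e-05), and Nop56 at 131, 146 and 136 CPM against 50.2 and 48.6 CPM (-1.48 ± 0.15, edgeR adjusted p = 2.24e-05). Fbl, the methyltransferase fibrillarin, had 17.3, 20.5 and 16.2 CPM at D6 and 8.05 and 10.6 CPM at D8 (-0.95 ± 0.16, edgeR adjusted p = 0.000709). Box H/ACA snoRNPs turn uridine into pseudouridine, and Dkc1 is their catalytic subunit. Dkc1 went from 120, 137 and 137 CPM to 49.1 and 55.6 CPM (-1.33 ± 0.18, edgeR adjusted p = 0.000124). Its partners Nhp2 and Gar1 fell by 1.44 and 1.14 log2 units, and Nop10, the smallest of the 4 proteins, by 0.61.

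Of the 17 processome genes 16 fell, with estimates from -1.48 to -0.25 over all 17. Utp20, a large scaffold protein and the most abundant gene of the group, stood at 199, 224 and 189 CPM at D6 and at 96.5 and 92.8 CPM at D8 (-1.11 ± 0.14, edgeR adjusted p = 9.04e-05). Heatr1, another large scaffold, had 118, 132 and 130 CPM against 44.4 and 46.6 CPM (-1.48 ± 0.12, edgeR adjusted p = 9.69e-06). Wdr3, one of several WD repeat proteins of the complex, went from 103, 104 and 103 CPM to 52.7 and 55.7 CPM (-0.93 ± 0.10, edgeR adjusted p = 3.46e-05). The smallest falls that passed were those of Emg1, a methyltransferase, at -0.43, and Nop14 at -0.44. Imp3, which with Imp4 and Mphosph10 forms a small module on the U3 snoRNA, had 39.4, 41.6 and 39.3 CPM at D6 and 35.2 and 32.2 CPM at D8. Its groups did not overlap, but the difference did not pass (-0.25 ± 0.11, edgeR adjusted p = 0.0834), while Imp4 fell by 0.82 and Mphosph10 by 0.53.

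Late 40S maturation held the next largest changes. Rrp12, a factor of 40S maturation and export, stood at 88.6, 101 and 84.9 CPM at D6 and at 23.6 and 21.2 CPM at D8, 4.08-fold lower (-2.03 ± 0.14, edgeR adjusted p = 9.08e-06). Bysl, the bystin protein of the 40S precursor, had 88.7, 98.7 and 91.4 CPM against 28.7 and 26.3 CPM, 3.38-fold lower (-1.76 ± 0.12, edgeR adjusted p = 9.08e-06). Tsr1, a factor on the precursor that resembles a translational GTPase, went from 153, 186 and 175 CPM to 68.1 and 63.7 CPM (-1.38 ± 0.19, edgeR adjusted p = 0.000154). Nob1, the endonuclease that makes the end of 18S RNA, moved least of the 6, by -0.53 ± 0.11 (edgeR adjusted p = 0.003).

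All 12 genes of 60S assembly fell. Nop2, a methyltransferase of 28S RNA, stood at 146, 186 and 165 CPM at D6 and at 54.5 and 50.5 CPM at D8, 3.15-fold lower (-1.66 ± 0.15, edgeR adjusted p = 1.82e-05). Gnl3, which encodes nucleostemin, a nucleolar GTPase of stem cells and the most abundant gene of this group, had 186, 181 and 162 CPM against 73.6 and 71.5 CPM (-1.28 ± 0.19, edgeR adjusted p = 0.000243). Ftsj3, an RNA methyltransferase, went from 167, 177 and 171 CPM to 70.4 and 70.9 CPM (-1.28 ± 0.11, edgeR adjusted p = 9.69e-06). Pes1, Bop1 and Wdr12 form one complex that 60S processing needs, and their estimates were unequal. Bop1 was at -1.21 ± 0.16, Wdr12 at -0.81 ± 0.15 and Pes1 at -0.50 ± 0.08. Pes1 was the smallest fall of the 12, from 134, 139 and 131 CPM to 91.7 and 99.1 CPM (edgeR adjusted p = 0.000334).

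**Figure D2:**
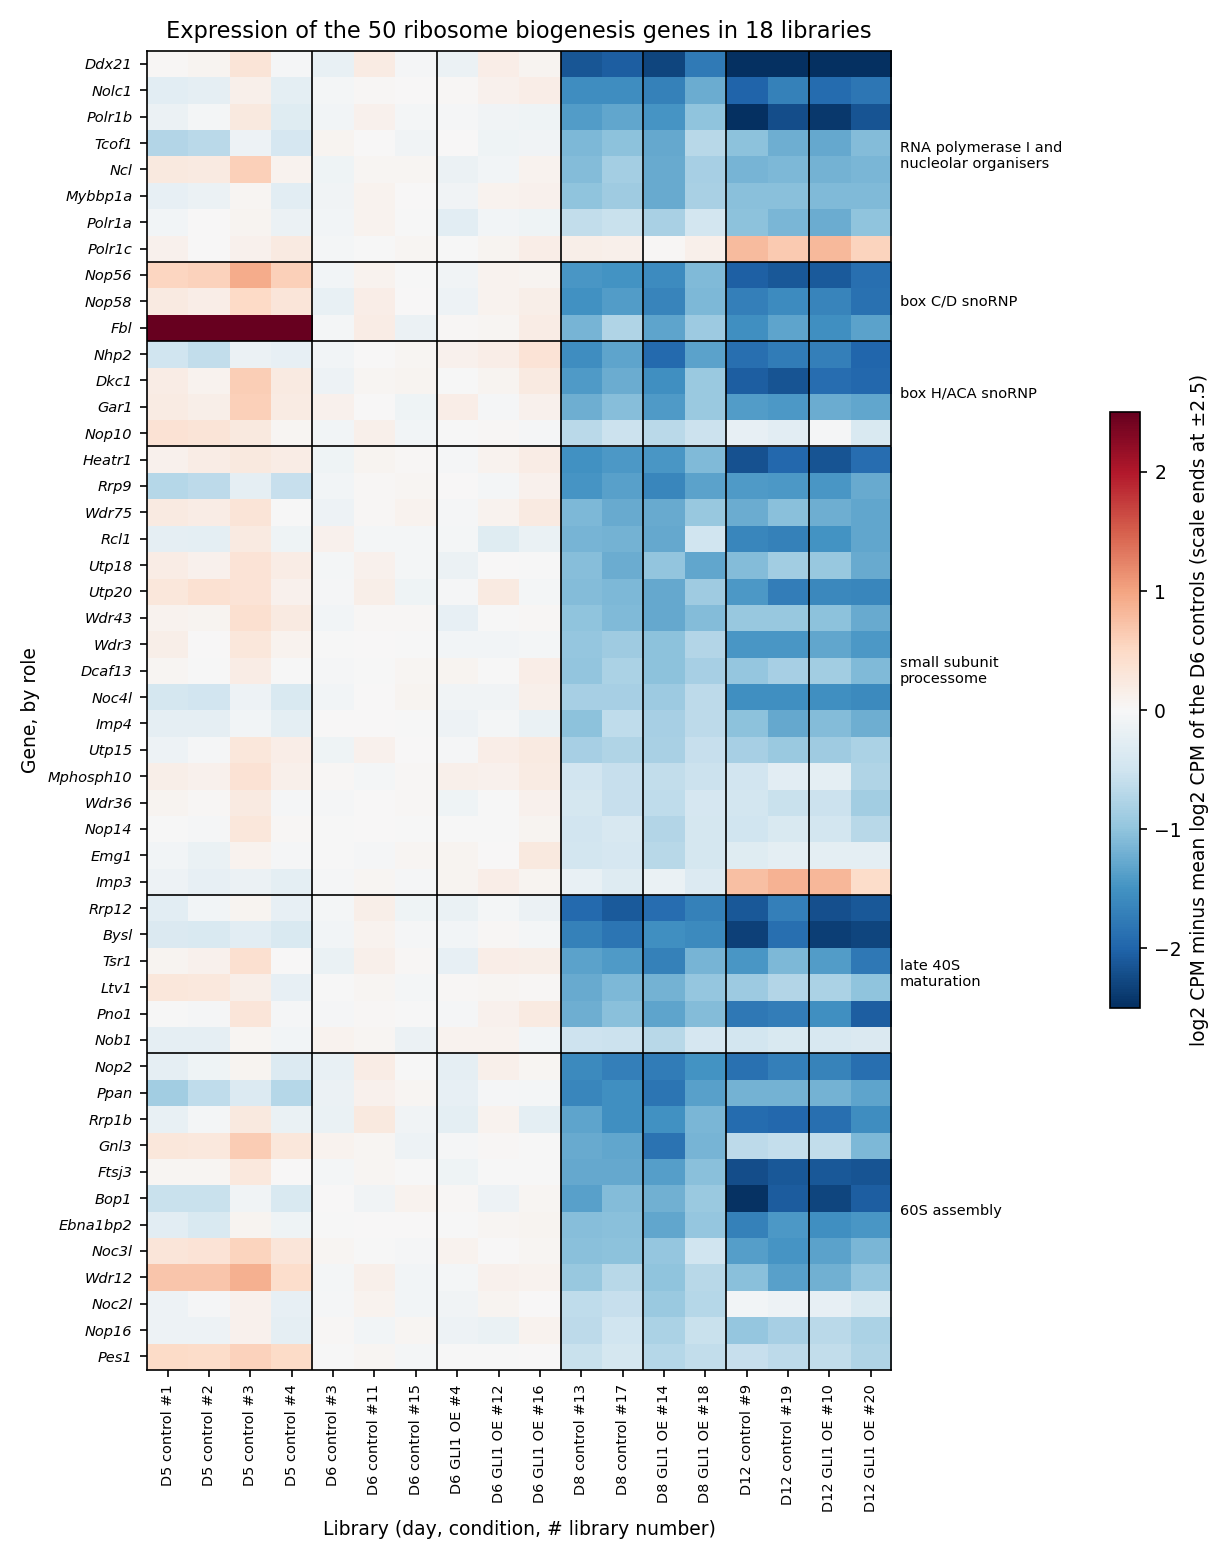
Expression of the 50 genes (rows, by role and ordered by their D8 over D6 change in controls) in the 18 libraries (columns), as log2 CPM minus the gene's mean in the D6 controls. The D8 and D12 columns are blue for all but a few genes, Imp3 and Polr1c turn red at D12, and Fbl stands out in red in the 4 D5 libraries.

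The fall was also present in the cells that had received the GLI1 pulse. These libraries share none with the controls, but they come from the same line and their spread was estimated in the same fit. Control and GLI1 OE libraries with adjacent numbers also deviated together at D6 and D8, so the fall here is not an independent repeat. From D6 to D8 in GLI1 OE, 49 of 50 genes fell (19.8% of all genes tested) and none rose (20.3% of all genes tested), with a median log2 fold change of -1.10. All 48 genes that fell in controls fell here too, and these 48 are 98.0% of the 49. Such overlaps were counted within the 50 genes only, so they cannot be read as particular to them. The gene that did not pass was again Polr1c, at 0.01 ± 0.10 (edgeR adjusted p = 0.941). Ddx21 fell from 347, 436 and 407 CPM to 78.3 and 113 CPM (-2.05 ± 0.20, edgeR adjusted p = 1.34e-05), Nhp2 from 86.7, 90.4 and 102 CPM to 20.7 and 31.7 CPM (-1.83 ± 0.19, edgeR adjusted p = 1.9e-05), and Rrp12 from 81.0, 88.1 and 82.6 CPM to 24.5 and 28.3 CPM (-1.67 ± 0.14, edgeR adjusted p = 7.22e-06).

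**Figure D3:**
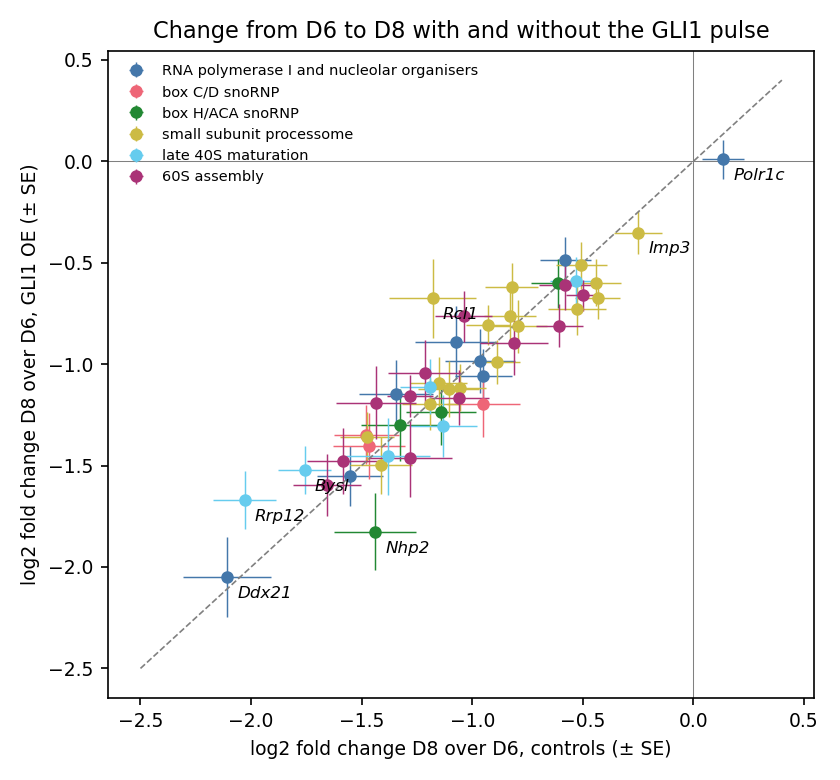
Log2 fold change from D6 to D8 in controls (horizontal axis) and in GLI1 OE (vertical axis) for the 50 genes, with SE bars and colours for roles. The dashed line marks equal change, and apart from Polr1c all points lie below 0 on both axes, from Imp3 at -0.25 and -0.35 to Ddx21 at -2.11 and -2.05.

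Cardiomyocyte marker levels also changed between the libraries of a group. D8 control library 17 had 7346 CPM in the 10 markers, inside the 4737 to 11258 CPM of the D6 controls, and its share of counts in the 50 genes was 0.401%, while library 13 had 16292 CPM and 0.372%. D8 GLI1 OE library 18 had 1424 CPM in the markers, less than every D6 library, and a share of 0.448%. Library 14 of the same group had 14336 CPM in the markers and a share of 0.338%. In both D8 groups the library with more marker RNA had the lower share, as in D12 GLI1 OE. The order was opposite in the D6 controls, with 11258 CPM and 0.834% in library 11 and 4737 CPM and 0.782% in library 3. The D12 controls had that order too, with 13892 CPM and 0.317% in library 19 and 5791 CPM and 0.313% in library 9. D5 controls and D6 GLI1 OE showed neither order. All 4 D8 shares lay below every D5 and D6 library. Markers of other cell types also differed between D6 and D8. In controls, 5 blood markers summed to 202 to 720 CPM at D6 and 23.8 to 41.2 CPM at D8, and 5 smooth muscle and fibroblast markers to 4449 to 6260 CPM and 2004 to 2857 CPM, with no overlap in either list. Of these 10 genes, the smooth muscle genes Tagln and Myh11 passed the test as lower. In GLI1 OE the blood markers went from 110 to 243 CPM to 46.5 to 86.4 CPM, and the smooth muscle and fibroblast sum of 2388 to 2587 CPM at D8 lay inside the 2217 to 4421 CPM of D6. The 8 cardiac progenitor markers summed to 791 to 1090 CPM in D6 controls and 1184 to 1383 CPM in D8 controls, and the 6 pluripotent, 5 endothelial and 5 endoderm markers overlapped between these groups. The 5 neural markers summed to at most 13.9 CPM in these controls, with 2 of them at 0 in both D8 controls. The part of cell makeup in the fall was not tested.

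Other genes of the pathway were taken from a list of 86 further ribosome biogenesis factors that passed the filter. In controls 77 of the 86 fell from D6 to D8 and none rose, with a median of -0.73, where 17.5% of all genes tested fell and 17.3% rose. Mrto4, a 60S assembly factor, fell from 54.4, 57.3 and 54.3 CPM to 23.2 and 25.6 CPM (-1.18 ± 0.11, edgeR adjusted p = 2.03e-05). Rpf2, which brings 5S RNA into the 60S precursor, fell by 1.13 ± 0.12 log2 units (edgeR adjusted p = 3.28e-05). Of the protein parts of the ribosome, 17 of 77 genes fell and none rose, with a median of -0.12. The count that fell is near the 17.5% of all genes tested. Ribosomal protein genes held only 0.888 to 1.61% of counts in libraries 3 to 20, against 3.97 to 4.68% at D5. Whether read assignment has a part in the later values of this list was not tested. In GLI1 OE the same step gave 78 of 86 further factors and 28 of 77 ribosomal protein genes lower, with medians of -0.76 and -0.33. There 19.8% of all genes tested were lower.

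In the MYC and MAX network 3 of 11 genes rose and 3 fell in this step in controls, where 17.3% of all genes tested rose and 17.5% fell, and the list was not tested against other genes. Mycn, a MYC family gene of embryonic progenitors, went from 143, 178 and 168 CPM to 50.7 and 67.7 CPM (-1.46 ± 0.22, edgeR adjusted p = 0.00028). Myc had 38.8, 41.3 and 31.8 CPM at D6 and 13.2 and 17.9 CPM at D8 (-1.26 ± 0.36, edgeR adjusted p = 0.016), and Mycl1, the older name of Mycl, also fell (-1.92 ± 0.54, edgeR adjusted p = 0.0145). Mxi1 and Mxd1, whose proteins compete with MYC for MAX, rose by 2.29 ± 0.24 and 0.75 ± 0.13 log2 units (edgeR adjusted p = 3.32e-05 and 0.000881). Myc and Mxi1 were named after their values were seen. Of 12 cell division genes 4 fell, with a median of -0.59, among them the replication genes Pcna (-0.88 ± 0.19, edgeR adjusted p = 0.0032) and Mcm2 (-0.70 ± 0.13, edgeR adjusted p = 0.00142). Of 10 genes that p53 is known to turn on 2 fell, a share near the 17.5% of all genes tested, and one of them was Sesn2, from 89.6, 63.1 and 73.8 CPM to 41.0 and 34.0 CPM (-1.01 ± 0.18, edgeR adjusted p = 0.000921).

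The letters CACGTG form the E-box that MYC with MAX is known to bind, and members that fell together were searched for it. RefSeq promoter windows of build GRCm38.p6, which run from 250 bases before a gene's start to 50 bases after it, were at hand for 44 of the 50 genes. Of these, 10 held CACGTG, which is 22.7%, against 20.8% of 72 further biogenesis factors, 10.5% of 57 ribosomal protein genes and 11.6% of 10477 genes tested. The motif reads the same on both strands. In 3 genes it lay before the start and in 7 after it. The 10 sites are shown because these are the letters the search found, with CACGTG in capitals and up to 10 bases on each side, 5′ to 3′ on the strand of the gene. Where the window ended sooner, fewer bases follow.
Mybbp1a, chr11:72441357-72441376, plus strand: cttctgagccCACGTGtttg
Wdr43, chr17:71616222-71616247, plus strand: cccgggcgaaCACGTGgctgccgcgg
Utp18, chr11:93885771-93885796, minus strand: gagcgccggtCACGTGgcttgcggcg
Utp20, chr10:88826765-88826787, minus strand: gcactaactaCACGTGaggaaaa
Imp4, chr1:34439698-34439723, plus strand: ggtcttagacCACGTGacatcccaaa
Pno1, chr11:17211540-17211562, minus strand: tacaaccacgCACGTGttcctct
Ltv1, chr10:13193094-13193119, minus strand: cctgtggaccCACGTGtggagctgcc
Tsr1, chr11:74898094-74898119, plus strand: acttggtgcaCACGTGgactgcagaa
Pes1, chr11:3963967-3963992, plus strand: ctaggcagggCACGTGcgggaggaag
Nop2, chr6:125131813-125131838, plus strand: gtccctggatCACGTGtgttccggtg
The first base of the motif stood 121, 60 and 20 bases before the start in Imp4, Nop2 and Utp18. After the start it stood at base 3 in Pes1, 18 in Wdr43, 25 in Tsr1, 29 in Ltv1, 38 in both Utp20 and Pno1, and 41 in Mybbp1a.

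Of these 10 genes, Pes1, Utp20, Pno1 and Nop2 had the smallest p from D5 to D12 in controls. Only in Nop2 among them did the E-box lie before the start. For that reason the 250 bases before the start of Nop2 are shown, and 67.6% of them are G or C. They lie at chr6:125131633-125131882 on the plus strand of GRCm38.p6, with the E-box in capitals.
Nop2: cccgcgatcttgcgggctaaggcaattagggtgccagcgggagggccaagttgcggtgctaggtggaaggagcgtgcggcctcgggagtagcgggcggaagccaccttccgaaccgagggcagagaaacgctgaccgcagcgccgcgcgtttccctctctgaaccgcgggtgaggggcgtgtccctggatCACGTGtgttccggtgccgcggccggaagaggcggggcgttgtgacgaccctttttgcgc
All 10 genes with it fell from D6 to D8 in controls, with a median of -1.12 and a range from -1.66 to -0.50, and 32 of the 34 genes without it fell, with a median of -1.10. The other motif searched, GACCACCCA on either strand, was in no window of the 44 genes, where 0.258% of genes tested held it. At so low a share its absence from 44 genes says nothing about them.

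From D8 to D12 some genes fell further and a few rose. In controls 5 of the 50 rose and 17 fell, where 16.9% of all genes tested rose and 19.4% fell, with a median of -0.18. Scaled by library totals alone, where the median of all genes shifted to -0.21, 3 rose and 24 fell. In either direction 22 of the 50 were called (36.3% of all genes tested), a count that was 13 without D8 control library 17 and 14 without D12 control library 19. For 48 of the 50 genes the change in size was smaller in this step than in the one before.

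The largest falls from D8 to D12 in controls were those of Bop1, Polr1b and Ddx21. Bop1 stood at 38.4 and 45.9 CPM in D8 controls 13 and 17, and at 17.6 and 23.1 CPM in D12 controls 9 and 19 (-1.05 ± 0.18, edgeR adjusted p = 0.000532). Polr1b went from 32.8 and 34.8 CPM to 15.2 and 18.5 CPM, and fell by 1.00 ± 0.18 on the log2 scale (edgeR adjusted p = 0.000835). Ddx21 went from 88.2 and 92.1 CPM to 38.1 and 55.6 CPM (-0.94 ± 0.20, edgeR adjusted p = 0.00276). The groups of all 3 genes did not overlap, and each had also fallen in the step before. Polr1a fell again as well (-0.50 ± 0.12, edgeR adjusted p = 0.00672).

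The genes that rose were Imp3, Gnl3, Polr1c, Noc2l and Nop10. Imp3 went from 35.2 and 32.2 CPM at D8 to 67.9 and 73.1 CPM at D12, above every control of D5 and D6 (1.07 ± 0.12, edgeR adjusted p = 3.46e-05). Polr1c went from 75.8 and 74.6 CPM to 118 and 108 CPM, also above every earlier control (0.59 ± 0.11, edgeR adjusted p = 0.00076). Noc2l, a factor of 60S precursor export, had 149 to 166 CPM in D6 controls, 100.4 and 104 CPM at D8 and 148 and 142 CPM at D12 (0.50 ± 0.11, edgeR adjusted p = 0.00373). Gnl3 went from 73.6 and 71.5 CPM to 111 and 117 CPM, below the 162 to 186 CPM of the D6 controls. Its test (0.65 ± 0.20, edgeR adjusted p = 0.0195) passed in none of the 4 fits that each left out a library, where the adjusted p ran from 0.0555 to 0.0851. Nop10 rose by 0.38 ± 0.13 (edgeR adjusted p = 0.0366). Noc2l shares 20.9% of its exonic bases with Samd11 on the other strand and Imp3 and Polr1c share none with another gene, in the GENCODE M21 annotation.

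In GLI1 OE 6 of 50 genes rose from D8 to D12 (15.9% of all genes tested) and 15 fell (17.5% of all genes tested), with a median of -0.20. The 5 genes that rose in controls rose here, 83.3% of the 6, and the further one was Emg1 (0.32 ± 0.11, edgeR adjusted p = 0.0343). Gnl3 no longer passed there without D8 library 14 or D12 library 10 (edgeR adjusted p = 0.245 and 0.293). Of the genes that fell, 14 were shared, which is 82.4% of the 17 in controls and 93.3% of the 15. These overlaps too were not counted over all genes tested. Imp3 went from 35.7 and 31.6 CPM to 71.0 and 55.1 CPM (0.91 ± 0.12, edgeR adjusted p = 0.000116) and Bop1 from 42.7 and 51.3 CPM to 19.9 and 23.3 CPM (-1.12 ± 0.18, edgeR adjusted p = 0.000422). The test leans on the spread shared by all groups: fitted to the 4 libraries alone it called none of the 50, and 99 of all genes. In either direction 21 of the 50 were called (33.5% of all genes tested), a count that was 13 without D12 GLI1 OE library 10, and scaled by library totals 3 rose and 20 fell.

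The other lists are given beside the same shares for controls between D8 and D12, 16.9% of all genes tested higher and 19.4% lower. Of 86 further biogenesis factors 14 rose and 21 fell, with a median of -0.06, which is near those shares. Of 77 ribosomal protein genes 51 rose and 2 fell, with a median of 0.59. All 12 cell division genes fell, with a median of -1.26, the largest being Rrm2, a subunit of ribonucleotide reductase (-2.86 ± 0.34, edgeR adjusted p = 5.34e-05). Mycn fell again, to 14.7 and 13.9 CPM (-2.05 ± 0.24, edgeR adjusted p = 4.83e-05), while Mnt, another partner of MAX, rose to 120 and 96.1 CPM (1.00 ± 0.16, edgeR adjusted p = 0.000352). Of the 10 p53 genes 6 rose, among them Bbc3, which promotes cell death, from 26.9 and 23.1 CPM to 76.1 and 69.3 CPM (1.54 ± 0.27, edgeR adjusted p = 0.000711), and Cdkn1a, which blocks the cell cycle, from 228 and 139 CPM to 527 and 564 CPM (1.57 ± 0.55, edgeR adjusted p = 0.0389).

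**Figure D4:**
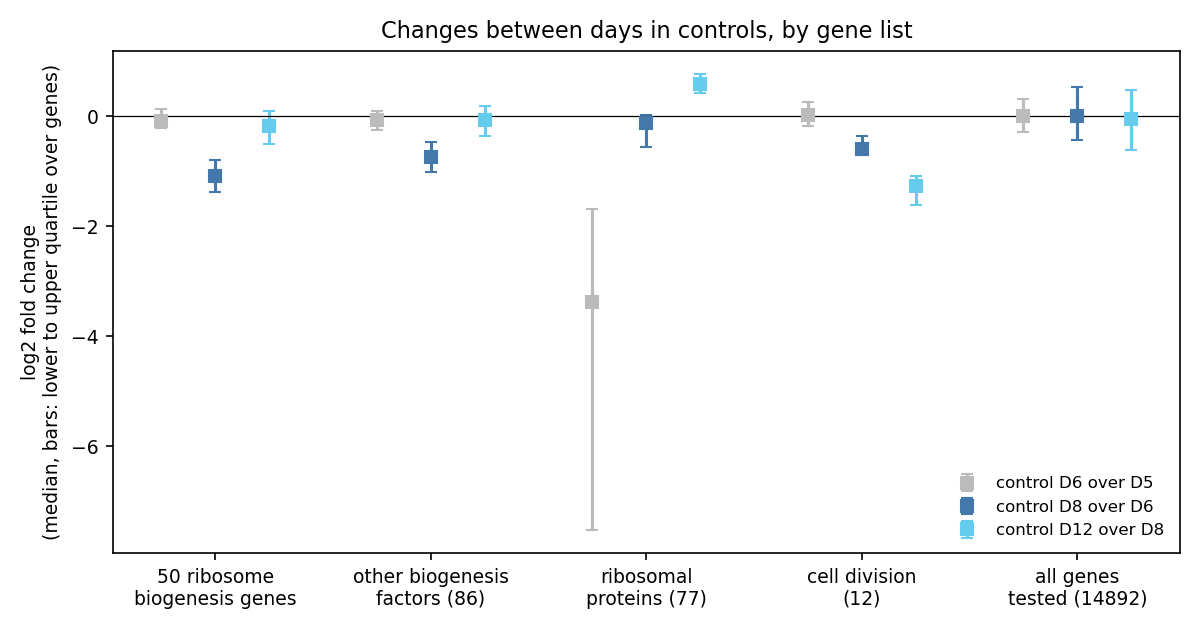
Median log2 fold change in controls for 3 steps (colours) in the 50 ribosome biogenesis genes and 4 other gene sets, with bars from the lower to the upper quartile over genes. The 50 genes are lowest in the D8 over D6 step (-1.09), cell division genes in the D12 over D8 step (-1.26), and ribosomal protein genes in the D6 over D5 step (-3.38), which also compares the 2 sets of libraries.

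Over the whole span of libraries 3 to 20, D12 controls against D6 controls, 46 of the 50 genes were lower (30.5% of all genes tested) and 2 were higher (29.8% of all genes tested), with a median of -1.25. This comparison was added after the D5 libraries were seen to stand apart. Ddx21 was lowest at -3.05 ± 0.21, with 341 to 446 CPM at D6 and 38.1 and 55.6 CPM at D12 (edgeR adjusted p = 9.76e-08). Polr1b, Bop1, Ftsj3, Dkc1, Bysl, Nop56 and Heatr1 followed between -2.35 and -2.07. Imp3 (0.82 ± 0.10, edgeR adjusted p = 1.61e-05) and Polr1c (0.73 ± 0.09, edgeR adjusted p = 1.81e-05) were higher. Noc2l (-0.10 ± 0.10, edgeR adjusted p = 0.405) and Nop10 (-0.24 ± 0.12, edgeR adjusted p = 0.0987) did not pass.

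While GLI1 was on, none of the 50 genes passed the test. In GLI1 OE against control at D6, 0 of 50 were called, where 4.14% of all genes tested were, and 0 of 50 had an unadjusted p under 0.05. The estimates ran from -0.17 to 0.21 with a median of 0.02, and the 95% intervals of the 50 differences lay within -0.53 and 0.55. The smallest p belonged to Polr1a, with 157, 174 and 162 CPM in controls and 137, 157 and 152 CPM in GLI1 OE (-0.14 ± 0.10, edgeR adjusted p = 0.579), and to Nhp2, with 76.8, 80.6 and 83.2 CPM against 86.7, 90.4 and 102 CPM (0.21 ± 0.16, edgeR adjusted p = 0.597). The 3 Nhp2 values with GLI1 OE lie above the 3 controls, while those of Polr1a overlap. DESeq2 and limma-voom called none of the 50 either, and the authors' deposited table for D6 also has no adjusted p under 0.05 among them, the smallest being 0.16.

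At D8, 2 days after the dox was washed out, 0 of 50 genes were called and 0% of all genes tested, and 1 had an unadjusted p under 0.05. Estimates ran from -0.21 to 0.34, with a median of 0.01 and 95% intervals within -0.61 and 0.79. Noc3l, a 60S assembly factor, had 22.0 and 22.3 CPM in controls and 23.4 and 32.1 CPM in GLI1 OE (0.32 ± 0.14, edgeR adjusted p = 0.799), and Pes1 had 91.7 and 99.1 CPM against 81.9 and 88.2 CPM (-0.16 ± 0.08, edgeR adjusted p = 0.831). The 2 GLI1 OE libraries lay on either side of the controls in the level of the whole set. Without library 14 the median was 0.16, and without library 18 it was -0.15.

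At D12, 0 of 50 genes were called and 0% of all genes tested, and none had an unadjusted p under 0.05. Estimates ran from -0.29 to 0.27, with a median of -0.02 and 95% intervals within -0.72 and 0.72. Bysl had 18.3 and 25.3 CPM in controls and 18.2 and 18.9 CPM in GLI1 OE (-0.23 ± 0.13, edgeR adjusted p = 0.907), and Rrp12 had 21.0 and 28.0 CPM against 19.9 and 21.1 CPM (-0.25 ± 0.15, edgeR adjusted p = 0.917). In both genes control library 19 is the high value. The authors' deposited tables hold 49 of the 50 genes at D8 and at D12, with every adjusted p at 1.

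**Figure D5:**
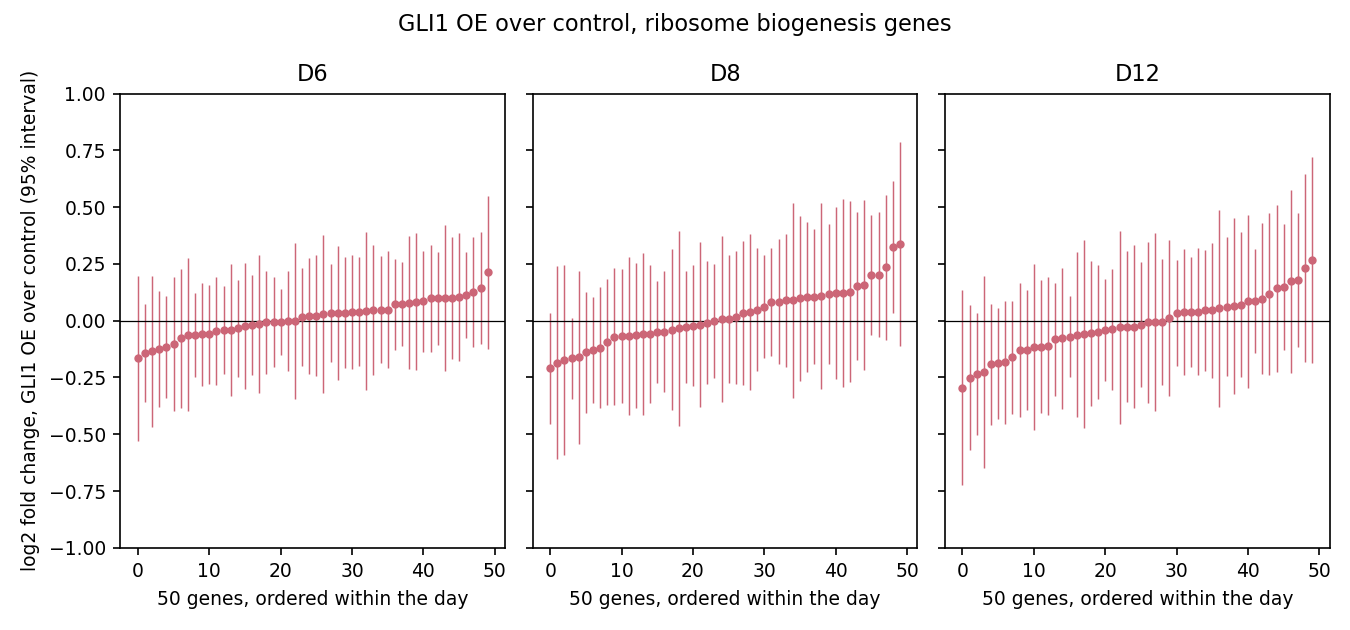
Log2 fold change of GLI1 OE over control with 95% interval (vertical axis) for the 50 genes, ordered by estimate within each day, at D6, D8 and D12. The estimates lie within -0.17 and 0.21 at D6, -0.21 and 0.34 at D8, and -0.29 and 0.27 at D12.

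The effect of GLI1 OE was also compared between days by the interaction test. Between D8 and D6, 0 of 50 genes differed, where 0.631% of all genes tested did, and none had an unadjusted p under 0.05. The smallest p were those of Rrp12, at 0.36 ± 0.19 (edgeR adjusted p = 0.802), and Rcl1, a processome factor, at 0.50 ± 0.27 (edgeR adjusted p = 0.809). These are also the differences of the 2 falls from D6 to D8 in the plot of controls against GLI1 OE. Between D12 and D8, 0 of 50 genes and 0% of all genes tested differed, with Bysl at -0.44 ± 0.18 and Rrp12 at -0.49 ± 0.21 (edgeR adjusted p = 1 for both), the 2 members with an unadjusted p under 0.05. The intervals reach -0.93 and 1.08 for the first comparison and -0.94 and 0.74 for the second. These are the outermost ends of the 50 intervals, and the interval of a single gene is narrower.

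Of the 86 further factors 1 was called with GLI1 OE at D6, where 4.14% of all genes tested were. It was Rsl24d1, a 60S assembly factor, which rose from 33.7, 36.8 and 32.5 CPM to 47.3, 46.0 and 50.4 CPM (0.48 ± 0.10, edgeR adjusted p = 0.0132). Its groups do not overlap, but it no longer passed when control library 3 or 15 or GLI1 OE library 16 was left out (adjusted p 0.064 to 0.0746). None of 77 ribosomal protein genes, 12 cell division genes and 10 p53 genes passed, with the most abundant of each, Rpl4, Top2a and Ccng1, at -0.04, 0.13 and 0.30. In the MYC and MAX network Mycl1 rose, from 13.4, 7.77 and 10.8 CPM to 43.1, 42.6 and 52.2 CPM (2.11 ± 0.45, edgeR adjusted p = 0.0155). Leaving out control library 11 or 15, or GLI1 OE library 16, ended this call too (adjusted p 0.0623 to 0.0759).

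At D5 the deposited TPM values, which account for transcript length, give the levels of the 50 genes against each other. The member median was 91.9 TPM, against 2.49 TPM over all genes of that table. Ncl was highest, with 547, 551, 704 and 495 TPM in replicates 1 to 4 (574 ± 90.2 SD, n = 4), followed by Fbl (416 ± 45.1 SD) and Nop58 (384 ± 37.8 SD). The ranges of Fbl and Nop58 over replicates overlap. In the counts Fbl had 158 to 196 CPM at D5 but 16.2 to 20.5 CPM in the D6 controls. Its place may thus belong to the D5 set of libraries, which stands apart, and this was not tested. Lowest were Utp15, a processome factor (42.8 ± 5.29 SD), Rrp12 (42.6 ± 4.58 SD) and Noc3l (32.8 ± 2.87 SD, 31.0 to 37.0 TPM). Utp15 and Rrp12 do not differ beyond their spread. Of the box H/ACA proteins, Nop10 had 194 ± 18.5 TPM, Nhp2 138 ± 21.7, Dkc1 125 ± 20.6 and Gar1 96.7 ± 15.0 (SD, n = 4). All 4 Nop10 values lay above those of the other 3 genes, whose ranges overlap.

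From D5 to D6 in controls 5 of the 50 genes were higher (8.39% of all genes tested) and 5 lower (9.99% of all genes tested), 10 in either direction (18.4% of all genes tested), with a median of -0.08. Scaled by library totals alone 9 were higher and 4 lower, and without D6 control library 11 the counts were 2 and 4. The higher genes were Ppan, a 60S assembly factor (0.63 ± 0.13, edgeR adjusted p = 0.00328), Rrp9 (0.53 ± 0.11, edgeR adjusted p = 0.00444), Tcof1 (0.47 ± 0.15, edgeR adjusted p = 0.0358), Noc4l and Bysl. Tcof1 had 109, 114, 166 and 135 CPM at D5 and 191, 183 and 172 CPM at D6. Its call was lost without any one of these libraries other than D5 control library 3.

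The lower genes were Fbl, Wdr12, Nop56, Pes1 and Noc3l, and Fbl stood apart. It had 158, 163, 196 and 190 CPM in the D5 libraries and 17.3, 20.5 and 16.2 CPM in the D6 controls (-3.29 ± 0.15, edgeR adjusted p = 4.78e-10). Wdr12 was at -0.69 ± 0.13 (edgeR adjusted p = 0.0017) and Nop56 at -0.67 ± 0.12 (edgeR adjusted p = 0.00115). In the same step 72 of 77 ribosomal protein genes were lower, with a median of -3.38 and values down to -11.3. Reads of 50 bases cannot tell identical stretches apart, so the share of 50-base windows of each gene's transcripts that also occur in transcripts of another gene was counted in GENCODE M21. Windows of all annotated transcripts of a gene were pooled, so the share within its most abundant transcript may differ. Ribosomal protein genes had a median share of 22.5%. Of the 50 genes, 24 had no such window, and the 5 with at least 5% were Pes1 (20.4%), Fbl (19.0%), Nop56 (18.6%), Imp3 (7.3%) and Wdr12 (5.8%). Of those 5, 4 were lower at D6, and of the other 45, 1 was lower and 5 were higher. Whether read assignment has a part in the D5 to D6 differences was not tested. From D6 to D8, between libraries with like names, 4 of the 5 and 44 of the 45 fell.

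Set against D5, D12 controls had 47 of the 50 genes lower (34.3% of all genes tested) and 2 higher (32.2% of all genes tested), Imp3 (1.00 ± 0.10, edgeR adjusted p = 7.65e-07) and Polr1c (0.61 ± 0.09, edgeR adjusted p = 3.3e-05), with a median of -1.36. Fbl was at -4.73 against D5 but at -1.43 against D6, and Nop56 at -2.75 and -2.08. For Ddx21 the values were -3.15 and -3.05, for Heatr1 -2.25 and -2.07, and for Ftsj3 -2.26 and -2.17. Among further factors Nhp2l1, the older name of the snoRNP protein Snu13, was at -3.03 against D5. The ribosomal protein genes with the smallest p, Rps27a, Rpl11 and Rpl19, were at -8.80, -8.34 and -8.56 against D5. Against D6, Rpl11 and Rpl19 were at -0.12 and 0.11 and no longer called. Rps27a was still called lower against D6, with -0.76 in the step from D6 to D8.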

How the data were processed

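PolyA RNA was read from 1 end over 50 bases, per the labels' protocols. The authors deposited raw counts per gene symbol for 18 libraries, and TPM values for the 4 D5 controls. The authors' deposited tables of GLI1 OE against control also give log2 fold changes, adjusted p-values and, at D6, a mean signal and a test score. For the aligner, the strand setting and the genome build, the entry is "not given in the sources used here".

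Counts went into edgeR 4.0.16 under R 4.3.3. After a filter with a minimum count of 10 and TMM scaling, the 7 groups were fitted in 1 model over 18 libraries and 14892 genes, with robust dispersions. Quasi-likelihood F tests gave p-values, adjusted over all genes by Benjamini-Hochberg and called under 0.05. CPM used a prior count of 2 for log values. The SE of a log2 fold change was taken from the F statistic. Simulated counts were used to test the script.

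The members and lists were chosen with earlier results of these data known. Named were the most abundant member of each role, those with the smallest p from D5 to D12 and in each GLI1 OE test, and the largest changes of each step. List genes were matched through RefSeq names of GRCm38.p6, 10 of them under an older name and 3 without a match. Count columns carry a library number and no replicate number. Control and GLI1 OE libraries with adjacent numbers deviated together at D6 (correlations 0.52, 0.62 and 0.45 over genes), as did those of D8 (0.49), but not those of D12 (-0.23). Alternatives were other scalings, no filter, DESeq2 1.42.0, limma-voom (limma 3.58.1), fits to fewer groups, a replicate block and each library left out.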

Additional observations from a re-analysis of the deposited data

Results flagged for a closer look

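D5 control library 3 was far from the other 3 D5 controls in the level of these genes. Its share of counts in the 50 genes was 0.9454%, against 0.762 to 0.7854% in the others, and the mean log2 CPM of the 50 was 7.041, against 6.781 to 6.787. For single genes, the gap between library 3 and the next library was taken as a share of the range of all 4 and not by size in CPM. Among genes chosen by the naming rules above, it was beyond Dixon's 95% critical value for Nop56 (262.3 CPM), Gar1 (70.06 CPM), Bysl (76.9 CPM), Pes1 (201.5 CPM), Ftsj3 (205 CPM), Noc3l (67.4 CPM) and Gnl3 (272.1 CPM), each above the range of the other 3. Outside that choice, Pno1 (86.7 CPM), Nolc1 (284 CPM), Imp4 (77.9 CPM) and Mphosph10 (110 CPM) had such a gap in library 3 too. Chance alone gives such a gap in about 1 of 20 groups of 4 independent libraries. D5 control libraries 1 and 2 were far closer to each other in their counts than any other pair of D5 libraries. That rate therefore cannot be taken to hold here, and the gap does not show how rare such a library is. The values listed also come from 1 library, so they are not separate signs. The library had 1646 CPM in 10 cardiomyocyte markers, the lowest of the 4, and their part in the level was not tested. Without it 11 of the 50 genes were called from D5 to D6, in place of 10.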

How the results depend on the processing

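In every setting 0 of the 50 genes were called for GLI1 OE against control at D6, D8 and D12 and for both differences between days. With the replicate block of adjacent library numbers the count was also 0, while 667 genes in all were called at D6 in place of 616, and with the D12 pairs crossed, chosen after seeing the data, it was 0. The fall from D6 to D8 in controls counted 48 genes in every other setting and 47 to 48 with a library left out. The same fall in GLI1 OE counted 46 to 49, and from D5 to D12 46 to 49 genes were called in either direction, 44 to 47 of them lower and 2 higher in each setting.

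Leaving out 1 library moved the count from D5 to D6 between 6 and 11, from D8 to D12 in controls between 13 and 16, and in GLI1 OE between 13 and 22. Where that left 1 library in a group, it was assumed to vary like the other groups. The last count was 0 in a fit to the groups compared alone, with 99 genes called in all. Scaling by library totals shifted the median of all genes by 0.12 from D5 to D6, -0.21 from D8 to D12 in controls and -0.13 in GLI1 OE.

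Of the single genes named, 983 values under the alternatives kept direction and call, 29 lost the call and 3 changed sign. Rpl4 at D6 ran from -0.12 to 0.018 with a library left out (0.018 without D6 control library 11), Bysl at D12 from -0.45 to 0.016 (0.016 without D12 control library 19), and Rpl19 became 0.11 with D6 controls in place of D5 controls. The cause was not tested. Fits with 2 libraries a group limit what was detectable at D8 and D12.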
